A study of Drosophila melanogaster with 12 samples.

Results

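Odorant-binding proteins (Obps) of Drosophila melanogaster were described in whole flies of both sexes and at 2 ages. The genes were chosen by name, namely every gene whose FlyBase symbol starts with Obp and a digit, and no expression value was used for the choice. 43 such genes were found among the 15631 genes of the count tables. A further 8 Obp genes that the RefSeq gene table lists (Obp47a, Obp47b, Obp50b, Obp50c, Obp56b, Obp57d, Obp58d and Obp85a) were not analysed here, and lush, an odorant-binding protein with another kind of symbol, was not counted as a member.

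The 4 groups were 30-day-old males, 10-day-old males, 30-day-old females and 10-day-old females, with 3 libraries each. All flies carried the white-eyed w1118 background, had been kept together until mated and were then held apart by sex on a sucrose and yeast diet. Each sample was a homogenate of 10 whole flies, and the 3 samples of a group came from independent experiments. mRNA was captured by its poly(A) tail and sequenced as paired ends.

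Odorant-binding proteins are small, secreted proteins. In a sensillum, the hollow sensory hair of an insect, support cells secrete them into the lymph that bathes the dendrites of the neurons, where they bind hydrophobic molecules such as odorants and pheromones. Odorants are then detected by receptors in the neuron membrane, most of which need the co-receptor Orco or one of the ionotropic co-receptors. Not all members act in smell: some are made in taste hairs, some in the fat body or in glia, and some are made in the male reproductive tract and are passed to the female with the seminal fluid. For this reason the family was divided into members known from the male tract, from the antenna, from taste organs and from several organs, and a rest with no assignment.

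Library totals were 23097763 to 38990857 counts in 30-day males, 38199967 to 48613036 in 10-day males, 37558056 to 54692004 in 30-day females and 51208712 to 62924598 in 10-day females. Markers of the male accessory gland summed to 5309 to 6754 CPM (counts scaled to the size of the library) in the 6 male libraries and to 0 to 1.01 CPM in the 6 female libraries, so every library matched its labelled sex. Markers of photoreceptors, neurons and muscle, 30 genes that mark organs of the head and the body wall rather than the gonads, summed to 12814 to 14528 CPM in males, 1126 to 2273 CPM in 30-day females and 2423 to 3018 CPM in 10-day females. Ovary markers ran the other way, with 46.2 to 75.6 CPM in males, 1593 to 2024 CPM in 30-day females and 2974 to 3747 CPM in 10-day females. In a homogenate of whole flies, fewer cells of a type and less RNA per cell cannot be told apart, and the organs make up different shares of the RNA in the sexes. Sex differences of the Obp genes were therefore computed on a pair of scales: the usual one (TMM normalization across all genes), and one in which the libraries were scaled to the photoreceptor, neuron and muscle genes. Genes of that list with no count in 1 or more libraries, fln among them, were left out of the scaling. The 30 markers did not all run the same way. In the test described below, 26 were called higher and 1 (Syx1A) lower in males at 30 days (48.1% and 28.7% of all tested genes). At 10 days 27 were called higher and 1 (Syx1A) lower (46.0% and 28.6%). This second scaling shifted the median log2 difference of all tested genes between males and females by -3.44 at 30 days and by -2.58 at 10 days.

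The Obp family made up 0.182 to 0.221% of all counts in 30-day males, 0.208 to 0.236% in 10-day males, 0.00732 to 0.0259% in 30-day females and 0.0224 to 0.0261% in 10-day females. Levels are given as FPKM, that is counts divided by the exon length of the gene and the size of the library, computed from the deposited counts. Summed over the family, the level was 2999, 4383 and 3169 FPKM in the 3 libraries of 30-day males and 3751, 3403 and 3486 FPKM in those of 10-day males. It was 311, 89.4 and 170 FPKM in 30-day females and 293, 315 and 285 FPKM in 10-day females. The lowest of the 12 libraries, replicate 2 of the 30-day females, was also the library with the lowest sum of photoreceptor, neuron and muscle markers (1126 CPM).

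Of the 43 genes, 19 had a count in all 12 libraries. 10 had none in any female library, and 4 of these had 100 or more counts in a male library: Obp51a, Obp56f, Obp56i and Obp99d. Obp56e and Obp84a had no count in any male library, but their highest counts in a female library were only 20 and 17. In 12 genes the highest count of any library was below 100. 38 genes passed the filter on low counts and were tested, while Obp56c, Obp56e, Obp57e, Obp58c and Obp84a did not pass.

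**Figure D1:**
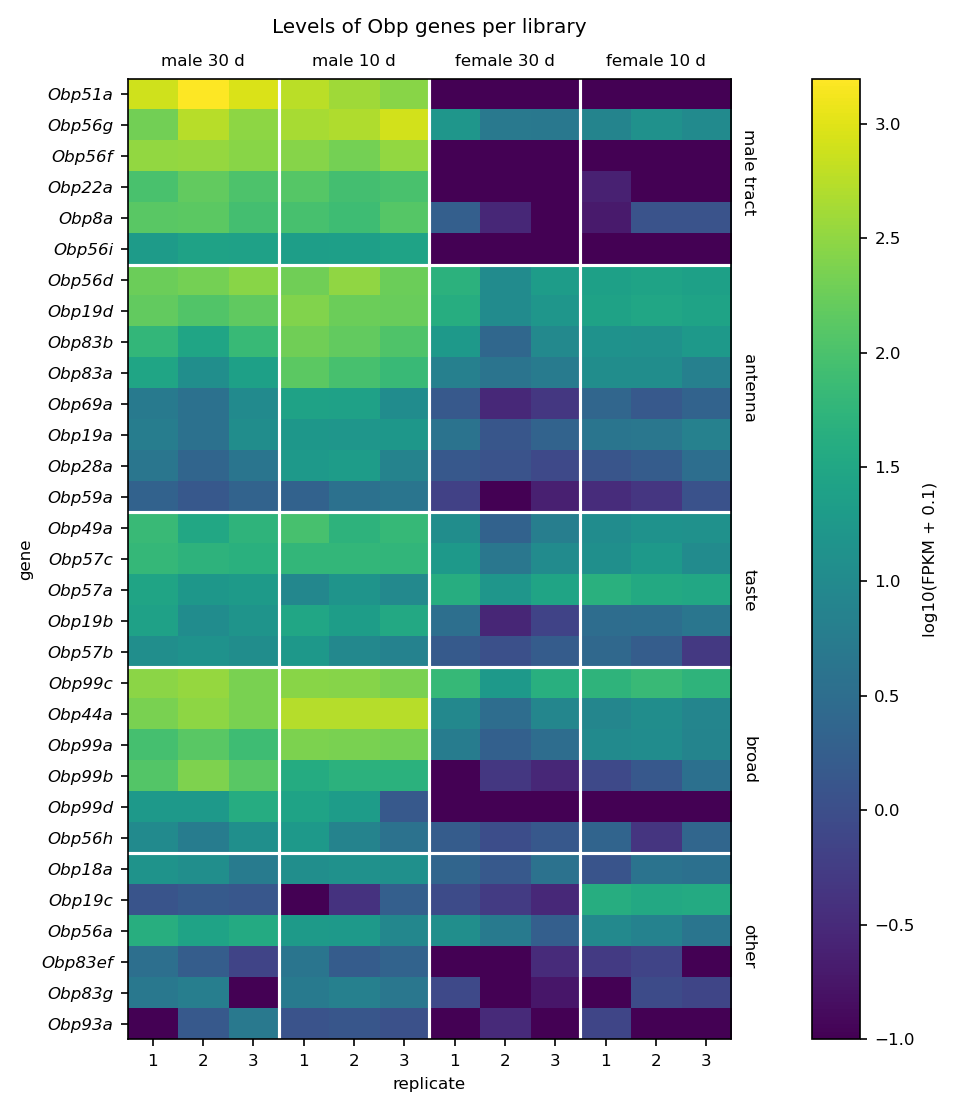
Heatmap of the log10(FPKM + 0.1) of the 31 Obp genes with 100 or more counts in a library (rows, grouped by the organs they are known from) in the 12 libraries (columns, replicates 1 to 3 of each group). Most rows are brighter in the 6 male libraries, while Obp57a and, at 10 days, Obp19c are brighter in females.

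Which members make up the signal differed between the sexes. In 30-day males Obp51a was the highest member with 1083 ± 427 FPKM (SD, n = 3), or 30.8% of the family, followed by Obp56g, Obp56f, Obp99c and Obp44a. In 10-day males the order was Obp56g (579 ± 195 FPKM, SD, n = 3), Obp44a (538 ± 13.5 FPKM), Obp51a (418 ± 148 FPKM), Obp56f (270 ± 63.4 FPKM) and Obp99c (259 ± 31.4 FPKM), where the spread of each overlaps with that of the next. In 30-day females Obp99c was highest (41.8 ± 23.3 FPKM), before Obp57a (28.4 ± 12.4 FPKM) and Obp56d (26.8 ± 20.2 FPKM), which do not differ beyond their spread. In 10-day females Obp99c (58.9 ± 9.15 FPKM) stood above Obp57a (38.2 ± 6.55 FPKM) and Obp19c (36.9 ± 3.69 FPKM), and the last 2 do not differ beyond their spread.

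Members known from the male tract took 51.3 to 63.4% of the family level in 30-day males and 37.7 to 47.8% in 10-day males, against 2.71 to 5.69% in 30-day females and 2.92 to 4.52% in 10-day females. Antennal members took 8.51 to 17.4% and 16.3 to 23.8% in 30-day and 10-day males, against 32.6 to 39.4% and 28.1 to 31.6% in 30-day and 10-day females. Taste members took 2.87 to 6.58% of the level in 30-day males and 4.59 to 5.56% in 10-day males, but 24.1 to 27.5% in 30-day females and 21.8 to 25.3% in 10-day females. In each of these 3 groups of members, every male library differed from every female library in the same direction. These shares are ratios within a library and do not depend on the scaling between libraries. They add up to the whole family, however, so the large male-tract share in males lowers the shares of all other members there. Shares without the male-tract members were not computed. A sex difference particular to antennal or taste members can therefore not be read from these shares alone.

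**Figure D2:**
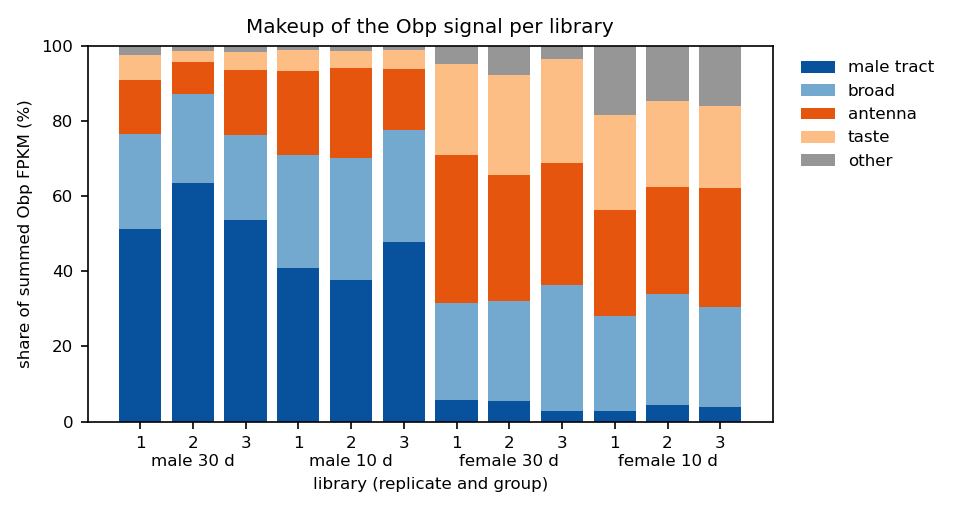
Stacked bars of the share (%) of the summed Obp FPKM taken by each group of members in each of the 12 libraries. Male-tract members fill 37.7 to 63.4% of the bar in male libraries and 2.71 to 5.69% in female libraries.

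To compare the sexes, all 12 libraries were fitted together with edgeR's quasi-likelihood test, and p-values were adjusted over all 14146 tested genes after Benjamini-Hochberg. At 30 days, 29 of the 38 tested Obp genes were higher in males and 0 were lower. At this age 48.1% of all tested genes were called higher and 28.7% lower in males. At 10 days, 26 Obp genes were higher and 2 (Obp57a and Obp19c) lower in males, against 46.0% and 28.6% of all tested genes. The median log2 difference of the tested Obp genes was 3.95 at 30 days and 3.24 at 10 days, and that of all tested genes was 1.71 and 1.35. With the genes without any female count set to their lower bound, the Obp median was 3.81 at 30 days and 3.24 at 10 days. A member that passed the filter only through its male libraries was favoured for a call, though Obp73a, without a female count, was not called. The count of 29 of 38 therefore describes the tested members and not the whole family. Without 1 library, calls were lost for Obp28a at 30 days (adjusted p = 0.054 without male replicate 1 and 0.0579 without female replicate 3, edgeR), Obp56h at 10 days (0.0733 without male replicate 1) and Obp19a at 10 days (0.0693 without female replicate 1 and 0.0531 without female replicate 2). Among members with few counts, Obp50d kept its call in 5 of 12 such fits at each age and Obp83ef in 4 of 12 at 30 days.

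With libraries scaled to the photoreceptor, neuron and muscle genes, 10 Obp genes were higher and 6 lower in males at 30 days (Obp18a, Obp19a, Obp28a, Obp57a, Obp57c and Obp83a), and 11 were higher and 2 lower at 10 days (Obp19c and Obp57a). On this scale 19.2% and 51.0% of all tested genes were called higher and lower in males at 30 days, and 21.4% and 48.0% at 10 days. The same 10 genes were higher in males at both ages on both scales: Obp8a, Obp22a, Obp44a, Obp51a, Obp56f, Obp56g, Obp56i, Obp99a, Obp99b and Obp99d. All 6 tested male-tract members and 4 of the 6 members known from several organs are among them, but no antennal or taste member is.

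**Figure D3:**
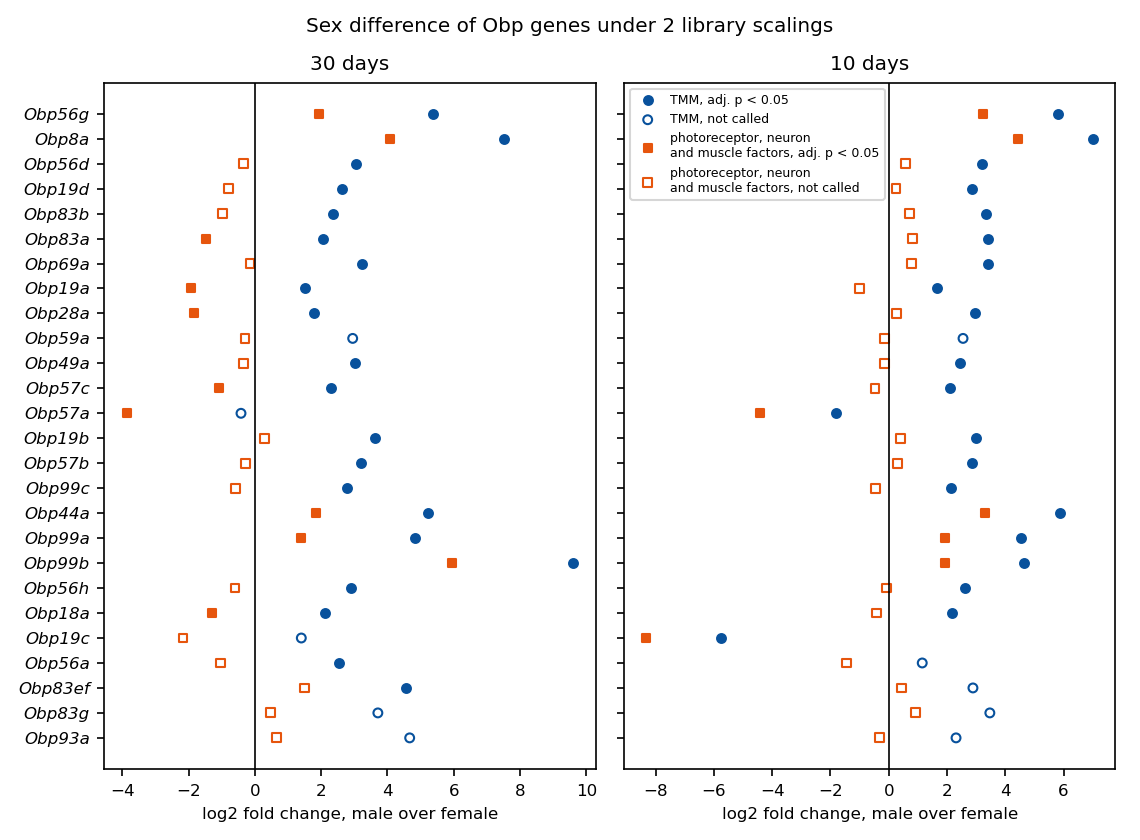
Log2 fold change of males over females (x axis) for Obp genes with 100 or more counts in a library (y axis) at 30 days (left) and 10 days (right), with TMM scaling (circles) and scaling to photoreceptor, neuron and muscle genes (squares); filled symbols have an adjusted p below 0.05 in edgeR's quasi-likelihood test. Obp51a, Obp56f, Obp56i, Obp99d and Obp22a are left out because they have no count in 1 or both female groups; antennal and taste members lie near or left of 0 on the second scale.

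As a group, the male-tract members had the largest median sex difference, with log2 11.10 at 30 days and 10.69 at 10 days when genes without a female count were set to their lower bound. Obp99d at both ages and Obp99b at 30 days, members of the several-organ group, nevertheless differed more than the male-tract members Obp8a and Obp56g. Obp51a, a seminal fluid member, had 773, 1570 and 905 FPKM in 30-day males and 578, 393 and 284 FPKM in 10-day males, and no count in any female library. Set against a floor of 3 counts over a group of libraries, it was at least 19761-fold higher in males than in females at 30 days and at least 9775-fold at 10 days. Obp56f, also a seminal fluid member, had 322, 338 and 279 FPKM in 30-day males and 274, 205 and 332 FPKM in 10-day males, again without a count in females, which makes it at least 8126-fold higher in males at 30 days and at least 8593-fold at 10 days.

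Obp56i, a further member of the male tract, was much lower, with 19.7, 26.1 and 25 FPKM in 30-day males and 22.4, 23.4 and 27.5 FPKM in 10-day males. It had no count in females and was at least 1183-fold higher in males at 30 days and at least 1498-fold at 10 days. Obp22a, a seminal protein passed on at mating, had 96.6, 155 and 106 FPKM in 30-day males and 123, 88.9 and 99.1 FPKM in 10-day males, and in the female libraries only replicate 1 of the 10-day females had any (0.143 FPKM). The difference was at least 4100-fold at 30 days, and at 10 days the log2 difference was 10.83 (SE 0.71, adjusted p = 7.34e-07, edgeR). The value at 10 days rests on 7 counts in that 1 female library, and it ranged from 10.24 to 14.61 over the fits without 1 library. Its size is therefore less certain than the SE alone shows.

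In contrast to these genes, Obp8a and Obp56g were counted in females too. Obp8a, a seminal fluid member, had 131, 135 and 87.3 FPKM in 30-day males and 93.5, 76.6 and 123 FPKM in 10-day males, against 1.76, 0.192 and 0 FPKM in 30-day females and 0.0996, 1.1 and 1.1 FPKM in 10-day females. Obp56g, a protein of the ejaculatory bulb that takes part in forming the mating plug, had 198, 555 and 300 FPKM in 30-day males and 439, 496 and 802 FPKM in 10-day males, against 15.9, 4.83 and 4.6 FPKM in 30-day females and 7.78, 13.2 and 9.9 FPKM in 10-day females. Every male library thus lay far above every female library for both genes. The log2 difference of Obp56g was 5.38 (SE 0.59, adjusted p = 6.1e-06, edgeR) at 30 days and 5.82 (SE 0.59, adjusted p = 4.15e-06) at 10 days, and it was still 1.93 and 3.24 on the second scale.

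That Obp56g is counted in females while Obp51a and Obp56f are not can be read beside the markers of the ejaculatory duct and bulb. These markers summed to 739 to 1801 CPM in males and 3.46 to 8.04 CPM in females, where EbpII and Ebp had no count, and the part of any shared RNA in the female counts of Obp56g was not tested. Within males, Obp51a took 73.9 to 79.6% of the sum of Obp51a and Obp56g at 30 days and 26.2 to 56.8% at 10 days.

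7 of the 8 tested antennal members were higher in males at both ages, against 48.1% of all tested genes at 30 days and 46.0% at 10 days. The median log2 difference of the 8 members was 2.50 at 30 days and 3.07 at 10 days. On the second scale none of them was higher in males at either age, the medians were -0.89 and 0.43, and 3 members (Obp19a, Obp28a and Obp83a) were lower in males at 30 days. On that scale 51.0% of all tested genes were called lower in males at 30 days. Obp56d, the highest antennal member, had 176, 209 and 281 FPKM in 30-day males and 196, 315 and 178 FPKM in 10-day males, against 49.4, 10.6 and 20.4 FPKM in 30-day females and 23.9, 26.8 and 24.4 FPKM in 10-day females. Its log2 difference was 3.05 (SE 0.47, adjusted p = 9.5e-05, edgeR) at 30 days and 3.20 (SE 0.47, adjusted p = 7.48e-05) at 10 days, and -0.34 and 0.58 on the second scale.

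Obp19d, a binding protein of olfactory and gustatory hairs, had 152, 112 and 151 FPKM in 30-day males and 247, 181 and 171 FPKM in 10-day males, against 40.6, 10.3 and 16.2 FPKM in 30-day females and 25.6, 30.2 and 27.2 FPKM in 10-day females. Obp83b (OS-E) and Obp83a (OS-F) are neighbouring genes that are both made in trichoid sensilla, which detect pheromones. Obp83b had 59.4, 28.8 and 68.3 FPKM in 30-day males and 196, 154 and 111 FPKM in 10-day males, against 18.7, 2.45 and 9.4 FPKM in 30-day females and 13.7, 13.4 and 18.5 FPKM in 10-day females. Obp83a had 29.6, 11.7 and 24.5 FPKM in 30-day males and 138, 95.2 and 71 FPKM in 10-day males, against 6.52, 4.02 and 5.54 FPKM in 30-day females and 11.3, 11.1 and 6.57 FPKM in 10-day females. For all 3 genes the male libraries lay above the female libraries at each age.

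Obp69a, whose product is linked to the response to a male pheromone, had 5.11, 3.58 and 10 FPKM in 30-day males and 26.1, 24.7 and 10.9 FPKM in 10-day males, against 1.39, 0.21 and 0.375 FPKM in 30-day females and 2.29, 1.36 and 2.1 FPKM in 10-day females. Obp28a, an abundant protein of the antennal lymph, had 4.38, 2.27 and 4.2 FPKM in 30-day males and 17.9, 21.1 and 7.4 FPKM in 10-day males, against 1.32, 1.08 and 0.752 FPKM in 30-day females and 1.16, 1.59 and 3.23 FPKM in 10-day females. Both were higher in males without overlap at each age.

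Obp19a, another antennal member, had 5.89, 3.51 and 11.3 FPKM in 30-day males and 16.8, 15.9 and 16.4 FPKM in 10-day males, against 3.93, 1.25 and 2.09 FPKM in 30-day females and 4.16, 4.52 and 6.92 FPKM in 10-day females. At 30 days its male and female libraries overlapped, and the log2 difference of 1.51 (SE 0.55, adjusted p = 0.0259, edgeR) was not past the threshold without male replicate 3 (adjusted p = 0.133), female replicate 2 (0.0739) or female replicate 3 (0.0588). Obp59a, a member needed for sensing humidity, was at the lower end with 1.95, 1.34 and 2.06 FPKM in 30-day males and 1.99, 3.58 and 4.12 FPKM in 10-day males, against 0.554, 0 and 0.135 FPKM in 30-day females and 0.235, 0.359 and 1.06 FPKM in 10-day females. Its groups did not overlap, but the difference was not past the threshold (log2 2.95, SE 1.28, adjusted p = 0.053 at 30 days and log2 2.55, SE 1.25, adjusted p = 0.0836 at 10 days, edgeR). With the second scaling it was -0.30 and -0.14.

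Of 25 further genes listed for antenna and taste organs, among them lush, 24 were in the tables and 21 were tested, on the first scale only. Est-6, which was called higher in males at both ages, is also on the list of ejaculatory duct and bulb markers. EbpIII, with 662 to 919 FPKM in males, was called higher at both ages too (log2 3.26 at 30 days and 3.39 at 10 days). It is not on the ejaculatory list, but it shares its name stem with the markers EbpII and Ebp. The part of the male tract in the differences of this list was not tested. At 30 days 10 of the 21 were higher in males and 0 lower, with 48.1% and 28.7% of all tested genes, and at 10 days 12 were higher and 0 lower, with 46.0% and 28.6% of all tested genes. The share called higher was thus close to that of all genes at 30 days. The median log2 differences were 2.33 and 2.91. The called genes include the co-receptor Orco, the pheromone-sensing protein Snmp1 of the neuron membrane and lush, the binding protein of the trichoid sensilla. For Orco the log2 difference was 2.06 (SE 0.83, adjusted p = 0.0397, edgeR) at 30 days and 3.52 (SE 0.88, adjusted p = 0.0033) at 10 days.

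**Figure D4:**
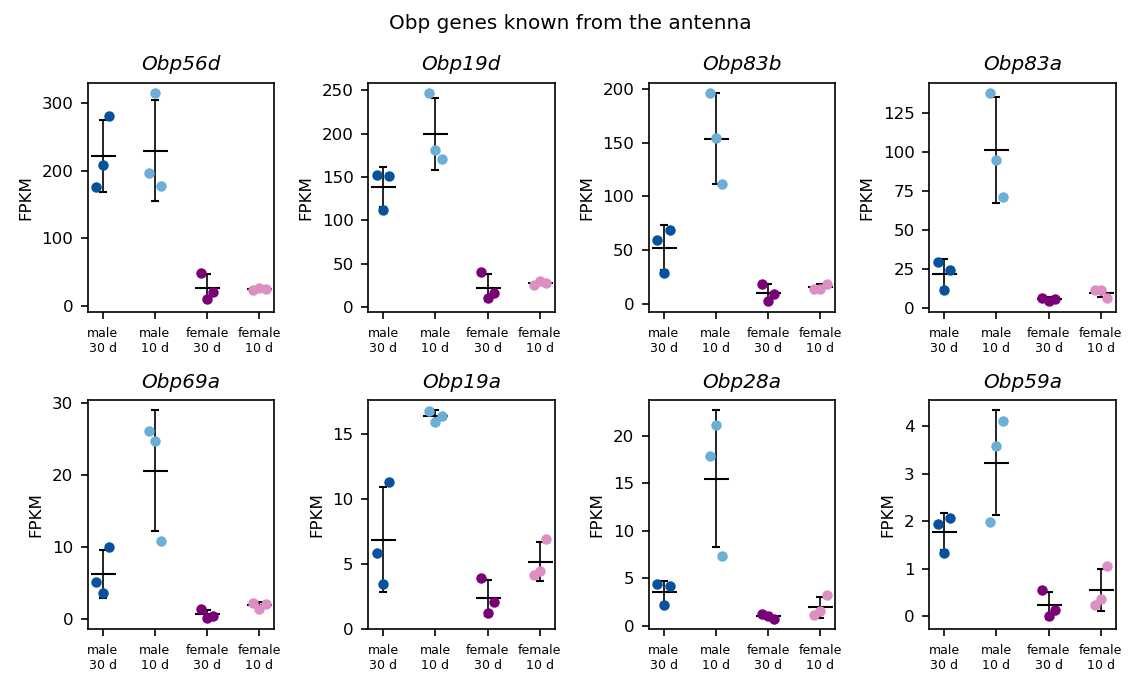
FPKM (y axis, from 0) of the 8 tested antennal Obp genes in the libraries of 30-day males, 10-day males, 30-day females and 10-day females (points), with mean and SD of 3 libraries (bars). In Obp83a and Obp83b the 30-day males lie below the 10-day males, and in all panels but Obp19a the males lie above the females of the same age.

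Of the 5 tested taste members, 4 were higher in males at both ages and the remaining one, Obp57a, was not. Over all tested genes, 48.1% were called higher at 30 days and 46.0% at 10 days. On the second scale 0 taste members were higher in males, and 2 (Obp57a and Obp57c) were lower at 30 days and 1 (Obp57a) at 10 days. The shares of all tested genes called lower on that scale were 51.0% and 48.0%. Obp49a, which is needed for bitter compounds to suppress the response to sugar, had 70.7, 32.8 and 53.1 FPKM in 30-day males and 92.9, 51.9 and 64.3 FPKM in 10-day males, against 11.3, 1.97 and 6.22 FPKM in 30-day females and 10.9, 13.8 and 13.4 FPKM in 10-day females. Its log2 difference was 3.01 (SE 0.53, adjusted p = 0.000291, edgeR) at 30 days and 2.46 (SE 0.52, adjusted p = 0.00111) at 10 days, but -0.35 and -0.14 on the second scale.

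Obp19b, known from taste hairs, had 25, 10.8 and 14.9 FPKM in 30-day males and 30.2, 21.8 and 33.4 FPKM in 10-day males, against 3.33, 0.178 and 0.6 FPKM in 30-day females and 3.02, 3.19 and 4.4 FPKM in 10-day females. Every male library of this gene lay above every female library.

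Obp57a, Obp57b and Obp57c are neighbours in the genome, and the 3 genes differed in direction. Obp57c had 62.1, 51.4 and 46.8 FPKM in 30-day males and 59.6, 58.8 and 57.8 FPKM in 10-day males, against 17.7, 4.47 and 10.3 FPKM in 30-day females and 12.4, 18.3 and 10.6 FPKM in 10-day females. Obp57b had 11.9, 13.5 and 11.3 FPKM in 30-day males and 17.2, 8.86 and 7.25 FPKM in 10-day males, against 1.47, 0.975 and 1.58 FPKM in 30-day females and 2.49, 1.66 and 0.388 FPKM in 10-day females. Obp57a had 27.6, 16.7 and 19.3 FPKM in 30-day males and 8.58, 14.8 and 9.33 FPKM in 10-day males, against 41, 16.2 and 27.9 FPKM in 30-day females and 45.6, 35.7 and 33.2 FPKM in 10-day females. Thus Obp57b and Obp57c were higher in males at both ages, whereas Obp57a was lower in males at 10 days (log2 -1.81, SE 0.39, adjusted p = 0.00119, edgeR) and its groups overlapped at 30 days (log2 -0.42, SE 0.38, adjusted p = 0.317). On the second scale Obp57a was lower in males at both ages, with log2 differences of -3.87 (adjusted p = 4.31e-07) and -4.43 (adjusted p = 4.21e-07). Within a library, Obp57a took 20.5 to 27.1% of the sum of the 3 genes in 30-day males and 10.1 to 18% in 10-day males, but 68.1 to 74.9% in 30-day females and 64.1 to 75.4% in 10-day females.

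All 6 members known from several organs were higher in males at both ages, against 48.1% of all tested genes at 30 days and 46.0% at 10 days. Obp44a, a member made in glia of the nervous system, had 224, 304 and 223 FPKM in 30-day males and 530, 530 and 553 FPKM in 10-day males, against 8.9, 3.03 and 8.27 FPKM in 30-day females and 8.36, 11.1 and 8.08 FPKM in 10-day females. It was higher in males by log2 5.22 (SE 0.37, adjusted p = 2.85e-07, edgeR) at 30 days and 5.87 (SE 0.38, adjusted p = 1.74e-07) at 10 days, and by 1.85 and 3.29 on the second scale. Its exons share 205 bases with those of Pabp2 on the opposite strand, and whether the counting used the strand is not given in the sources used here. Other members overlap a gene on the opposite strand too, among them Obp59a (224 bases with CG30259), Obp83ef (92 with Obp83cd) and Obp69a (53 with CG32104).

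Obp99a, a member made in several organs, had 89.9, 130 and 76.8 FPKM in 30-day males and 235, 221 and 206 FPKM in 10-day males, against 5.61, 1.85 and 3.06 FPKM in 30-day females and 9.97, 11 and 7.72 FPKM in 10-day females. Obp99b, a member made in the male fat body of the head, had 117, 242 and 134 FPKM in 30-day males and 37.6, 49.9 and 48.1 FPKM in 10-day males, against 0, 0.386 and 0.192 FPKM in 30-day females and 0.751, 1.31 and 3.44 FPKM in 10-day females. Thus both were far higher in males, but Obp99a was lower and Obp99b higher in 30-day than in 10-day males. The log2 difference of Obp99b between males and females was 9.61 (SE 0.85, adjusted p = 1.25e-06, edgeR) at 30 days and 4.63 (SE 0.66, adjusted p = 5.44e-05) at 10 days, and 5.95 and 1.94 on the second scale. Fat body markers summed to 1311 to 1383 CPM in 30-day males, 1288 to 1734 CPM in 10-day males, 489 to 1344 CPM in 30-day females and 2837 to 3617 CPM in 10-day females, but these sums mix opposite directions. Of the 7 tested markers, the yolk protein genes Yp1, Yp2 and Yp3 were lower in males at both ages, while FASN1, to and apolpp were higher in males at both ages and Lsp2 at 30 days. The part of the fat body in the differences of Obp99a and Obp99b was not tested.

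Obp99c, the highest member in females, had 295, 345 and 227 FPKM in 30-day males and 279, 276 and 223 FPKM in 10-day males, against 63.9, 17.5 and 44 FPKM in 30-day females and 52.9, 69.4 and 54.4 FPKM in 10-day females. Obp99d, the next of this group, had 17.5, 18.6 and 40.1 FPKM in 30-day males and 26.8, 21 and 1.38 FPKM in 10-day males and no count in females, so that it was at least 662-fold higher in males at 30 days and at least 468-fold at 10 days. Obp56h, a member linked to male courtship and cuticular hydrocarbons, had 10.2, 5.75 and 12.1 FPKM in 30-day males and 18.6, 7.37 and 3.65 FPKM in 10-day males, against 1.55, 0.884 and 1.31 FPKM in 30-day females and 2.16, 0.35 and 2.31 FPKM in 10-day females. Obp99c and Obp56h were higher in males on the first scale, while on the second scale they were not past the threshold, with log2 differences of -0.58 and -0.60 at 30 days.

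Of the 13 tested members without an assigned organ, 6 were higher in males at 30 days, and 3 were higher and 1 was lower at 10 days. Over all tested genes, 48.1% were called higher and 28.7% lower at 30 days, and 46.0% and 28.6% at 10 days. Only 6 of the 13 members had 100 or more counts in any library, and the others were at 3.33 FPKM or less. Obp19c is the member that stood apart, and it lies between Obp19b and Obp19d in the Obp19a to Obp19d cluster. It had 1.13, 1.43 and 1.28 FPKM in 30-day males and 0, 0.313 and 1.73 FPKM in 10-day males, against 0.801, 0.435 and 0.209 FPKM in 30-day females and 40.9, 33.6 and 36.3 FPKM in 10-day females. The 3 libraries of 10-day females were thus far above the other 9. At 30 days the log2 difference between males and females was 1.40 (SE 0.96, adjusted p = 0.198, edgeR) and not past the threshold, and at 10 days the gene was lower in males, with a log2 difference of -5.74 (SE 1.11, adjusted p = 0.000567). The second scaling gave -2.17 at 30 days (adjusted p = 0.0534) and -8.32 at 10 days (adjusted p = 1.6e-05). Within the cluster Obp19c took 0.615 to 1.12% of the summed level in 30-day males and 0 to 0.776% in 10-day males, against 1.1 to 3.58% in 30-day females and 46.9 to 55.5% in 10-day females.

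Ages were compared within each sex in the same fit. In males, 0 Obp genes were higher at 30 than at 10 days and 1, Obp83a, was lower, against 0.184% and 0.269% of all tested genes. In females, 0 were higher and 1, Obp19c, was lower, against 0.0212% and 0.304% of all genes. At an unadjusted p under 0.05, 3 Obp genes were higher and 7 lower at 30 days in males (5.58% and 6.51% of all genes), and 0 were higher and 4 lower in females (3.97% and 9.64% of all genes). The median log2 difference of the tested Obp genes was -0.10 in males and -0.54 in females, and that of all genes was -0.08 and 0.00. Scaling to the photoreceptor, neuron and muscle genes moved the median of all genes by 0.01 in males and by 0.87 in females, so that small differences between the ages of females depend on the scale. With other tools more members passed. DESeq2 called 2 Obp genes higher (Obp51a and Obp99b) and 3 lower (Obp44a, Obp83a and Obp99a) in 30-day males, where it called 1.54% and 2.50% of all genes. It gave no adjusted p in this comparison to many members, among them Obp19a, Obp28a, Obp56a and Obp69a. These could therefore not be called, and genes of this kind are still counted in the total behind the percentages. limma-voom called 3 higher (Obp51a, Obp56a and Obp99b) and 4 lower (Obp44a, Obp83a, Obp83b and Obp99a) in 30-day males, where it called 2.45% and 6.48% of all genes. In 30-day females DESeq2 called 0 higher and 3 lower (Obp19c, Obp99a and Obp99b), against 1.04% and 3.32% of all genes.

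The antennal members were the group in which the ages of the males lay furthest apart. All 8 tested members had a negative log2 difference between 30-day and 10-day males, from -2.20 in Obp83a to -0.05 in Obp56d, with a median of -1.40 against -0.08 over all genes. In 6 of them, Obp19a, Obp19d, Obp28a, Obp69a, Obp83a and Obp83b, each 30-day male library was below each 10-day male library. Over all 38 tested Obp genes, 8 were lower and 4 higher without overlap. The share of all tested genes that separate in this way was not computed, so these counts have no background to be read against. Obp83a fell at 30 days in males by 2.20 on the log2 scale (SE 0.38, adjusted p = 0.0412, edgeR). This call was kept in only 1 of 12 fits that each left out 1 library (the one without replicate 1 of the 30-day females), with adjusted p from 0.0498 to 0.176 and log2 differences from -2.48 to -1.90. For Obp28a the log2 difference was -2.09 (SE 0.62, adjusted p = 0.184), and for Obp83b it was -1.56 (SE 0.56, adjusted p = 0.293). In females 7 of the 8 were negative with a median of -0.88, and Obp83a had a log2 difference of -0.85 (SE 0.37, adjusted p = 0.356), but on the second scale the median was 0.06 and Obp83a was at 0.08. In males the second scale gave a median of -1.42. Whether the sexes differed in their change with age was tested for each gene, and no antennal member passed (Obp83a: log2 -1.35, SE 0.52, adjusted p = 0.297).

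Of the 21 tested genes listed for antenna and taste organs, 15 had a negative log2 difference between 30 and 10 days in males and 15 in females. 0 passed the test in either sex. The medians were -0.63 in males and -0.32 in females, against -0.08 and 0.00 over all genes. For Os-C, a secreted antennal protein, the log2 difference in males was -2.16 (SE 0.75, adjusted p = 0.268, edgeR), and for lush it was -1.69 (SE 0.65, adjusted p = 0.323). The photoreceptor, neuron and muscle markers summed to 12814 to 13729 CPM in 30-day males and 13617 to 14528 CPM in 10-day males.

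4 further members known from the male tract or from several organs, Obp51a, Obp99b, Obp44a and Obp99a, differed between the ages of males without overlap, as did the unassigned Obp56a (log2 1.23, SE 0.60, adjusted p = 0.455, edgeR) and the taste member Obp57a (log2 0.96, SE 0.38, adjusted p = 0.335). Obp51a was higher at 30 days in every pair of libraries, with a log2 difference of 1.37 (SE 0.34, adjusted p = 0.173, edgeR), and the highest library (replicate 2, 1570 FPKM) also had the highest sum of ejaculatory duct and bulb markers (1801 CPM, against 739 and 1076 CPM in the other 2 libraries of 30-day males). The part of this library's organ makeup in the difference was not tested. Without it the log2 difference of Obp51a was 1.00, and the adjusted p ranged from 0.144 to 0.439 over all fits that left out 1 library. Obp99b had a log2 difference of 1.86 (SE 0.57, adjusted p = 0.2), Obp44a of -1.10 (SE 0.31, adjusted p = 0.171) and Obp99a of -1.16 (SE 0.33, adjusted p = 0.173). None of these 6 genes passed the threshold in edgeR's test, and the share of all genes without overlap was not computed. The other male-tract members, Obp8a, Obp22a, Obp56f, Obp56g and Obp56i, had log2 differences from -0.72 to 0.27, with overlapping libraries.

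In females Obp19c fell at 30 days by 6.25 on the log2 scale (SE 1.13, adjusted p = 0.0491, edgeR). Its adjusted p lay close to the threshold and was between 0.0157 and 0.0913 in the 12 fits without 1 library, of which 5 kept the call, while the log2 difference stayed between -6.83 and -5.98. The call was lost without any 1 of the 3 libraries of 30-day males, replicate 2 of the 10-day males, replicate 2 of the 30-day females, or replicate 1 or 2 of the 10-day females. DESeq2 (adjusted p = 5.73e-08) and limma-voom (adjusted p = 0.00551) also called it. Its neighbours Obp19b and Obp19d had log2 differences of -1.37 (SE 0.78, adjusted p = 0.503) and -0.31 (SE 0.39, adjusted p = 0.911) in females. The sums of ovary and fat body markers were also lower in 30-day females (1593 to 2024 CPM and 489 to 1344 CPM) than in 10-day females (2974 to 3747 CPM and 2837 to 3617 CPM). Of the 8 tested ovary markers only 1, Cp38, was called lower, and their median log2 difference was -0.27. Of the 7 tested fat body markers 0 were called lower, with a median of -1.91. The part of both organs in the result was not tested.

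Obp99a had a log2 difference of -1.45 (SE 0.35, adjusted p = 0.119, edgeR) between 30-day and 10-day females, and Obp99b of -3.12 (SE 0.75, adjusted p = 0.119). In both genes the libraries of the 2 ages did not overlap, but neither passed the threshold. On the second scale the differences were -0.60 for Obp99a and -2.12 for Obp99b, and that of Obp19c was -5.30 (adjusted p = 0.042).

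**Figure D5:**
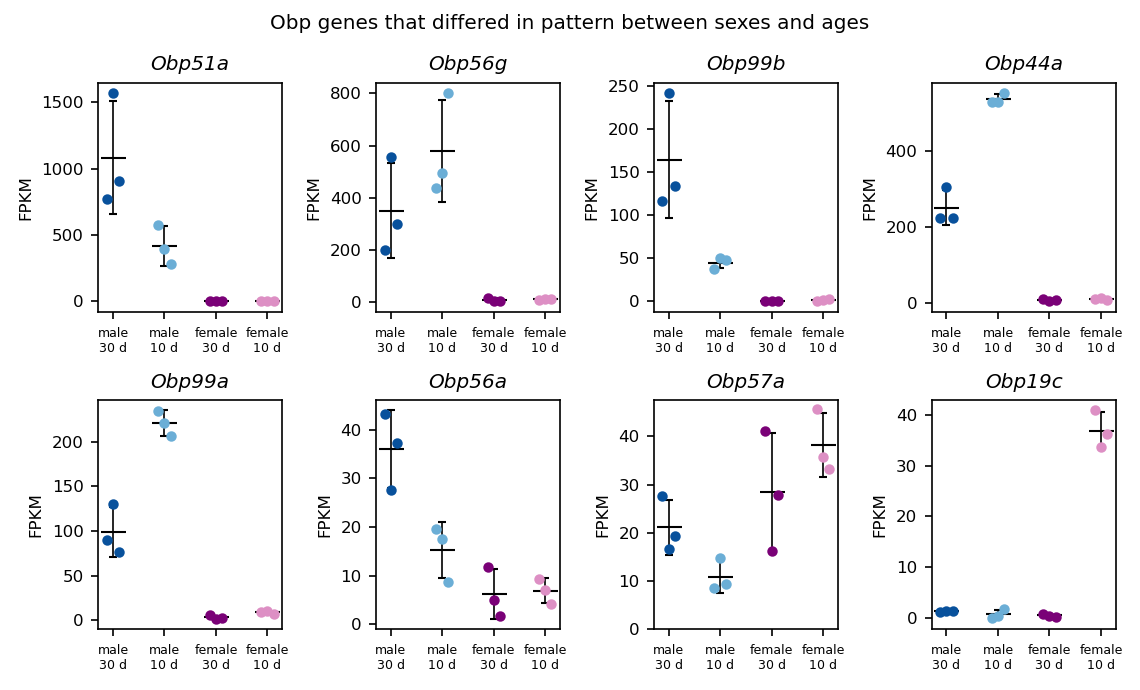
FPKM (y axis) of 8 Obp genes in the libraries of 30-day males, 10-day males, 30-day females and 10-day females (points), with mean and SD of 3 libraries (bars). Obp19c is high in 10-day females only (33.6 to 40.9 FPKM), Obp57a is lower in 10-day males than in 10-day females, and Obp51a and Obp99b are higher, Obp44a and Obp99a lower, in 30-day than in 10-day males. Obp56a is shown after its values were seen.

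A test of whether the sex difference changed with age called 0 of 38 Obp genes with edgeR (0.00707% of all genes in each direction), while 3 had a positive and 1 a negative change at an unadjusted p under 0.05 (6.77% and 6.22% of all genes). DESeq2 called 2 with a positive change (Obp19c and Obp99b) and 0 with a negative one, against 1.93% and 1.76% of all genes. limma-voom called 1 with a positive change (Obp19c) and 0 with a negative one, against 0.389% and 0.198%. The edgeR values were a log2 change of 7.15 (SE 1.44, adjusted p = 0.0921) for Obp19c and of 4.98 (SE 0.94, adjusted p = 0.0812) for Obp99b.

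Obp genes that lie next to each other were not always alike in their levels. In the Obp83a and Obp83b pair, Obp83a took 26.4 to 33.3% of the sum of both in 30-day males and 38.2 to 41.4% in 10-day males, against 25.8 to 62.1% in 30-day females and 26.3 to 45.3% in 10-day females, so that the ages of the males did not overlap in this ratio while those of the females did. Obp56a, which was picked after its values were seen, had 43.3, 27.5 and 37.2 FPKM in 30-day males and 19.6, 17.6 and 8.74 FPKM in 10-day males, against 11.8, 5.03 and 1.75 FPKM in 30-day females and 9.35, 7.11 and 4.22 FPKM in 10-day females. It was higher in males at 30 days (log2 2.54, SE 0.63, adjusted p = 0.00311, edgeR), while at 10 days the difference of 1.15 (SE 0.60, adjusted p = 0.103) did not pass the threshold. Its direction turned on the second scale, to -1.05 (adjusted p = 0.145) at 30 days and -1.45 (adjusted p = 0.0524) at 10 days.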

How the data were processed

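Counts per gene were deposited by the authors for 12 libraries, as whole numbers without normalization. The aligner, counting tool, strand setting and genome build are not given in the sources used here. The 16 columns of normalized values and group means in the count tables, and short FPKM tables, were not used. NCBI gene numbers were matched to FlyBase symbols with the RefSeq gene table, and exon lengths were taken from Ensembl BDGP6.54 by symbol (found for 43 of 43 Obp genes). In all, 15130 genes were listed at 10 days and 15261 at 30 days, and genes listed at 1 age only were set to 0 at the other.

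FPKM were computed here from the counts, exon length and TMM library sizes. All 12 libraries in 4 groups were fitted with edgeR 4.0.16 (R 4.3.3; genes kept from 0.246 CPM in 3 or more libraries, with 15 or more counts summed; quasi-likelihood test; Benjamini-Hochberg over 14146 genes; threshold 0.05). The SE was the log2 difference divided by the root of F. DESeq2 1.42.0, limma 3.58.1, other scalings and filters, a replicate block and fits without 1 library were alternatives. The code was tested on simulated data. Members, gene lists and the scaling to photoreceptor, neuron and muscle genes were chosen with earlier results of these data known. Every library was read for members of the organ lists with 100 or more counts, and the 5 called members with the largest difference in each direction and comparison.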

Additional observations from a re-analysis of the deposited data

Results flagged for a closer look

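2 genes had libraries that separated in opposite directions. Obp19c was in every library higher in males at 30 days (1.13, 1.43 and 1.28 FPKM against 0.801, 0.435 and 0.209 FPKM in females), where the levels were low in both sexes, and in every library lower in males at 10 days (0, 0.313 and 1.73 FPKM against 40.9, 33.6 and 36.3 FPKM in females). Its log2 difference between 30 and 10 days was 0.89 (SE 0.95, adjusted p = 0.822, edgeR) in males, where the libraries of the ages overlapped, and -6.25 (SE 1.13, adjusted p = 0.0491) in females, so the sex difference changed by 7.15 on the log2 scale (SE 1.44, adjusted p = 0.0921). Obp99b was higher at 30 than at 10 days in every male library and lower in every female library. Its log2 difference between 30 and 10 days was 1.86 (SE 0.57, adjusted p = 0.2) in males and -3.12 (SE 0.75, adjusted p = 0.119) in females, and the sex difference changed by 4.98 (SE 0.94, adjusted p = 0.0812). The difference itself was tested in both genes and was not past the threshold in edgeR's test of all 12 libraries. It passed for Obp99b in 2 of 12 fits that left out 1 library (adjusted p from 0.0466 to 0.194), and for Obp19c in 0 of 12 (0.0575 to 0.229).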

How the results depend on the processing

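Of 50 called differences of the 26 members named by rule, which do not include Obp18a and Obp56a, 17 changed sign when libraries were scaled to photoreceptor, neuron and muscle genes, 10 kept their sign but were no longer past the threshold, and 23 stayed past it. At 30 days the reversed log2 differences between males and females were -0.29 (Obp57b), -1.94 (Obp19a), -0.80 (Obp19d), -1.85 (Obp28a), -0.35 (Obp49a), -0.34 (Obp56d), -0.60 (Obp56h), -1.08 (Obp57c), -0.15 (Obp69a), -1.49 (Obp83a), -0.98 (Obp83b) and -0.58 (Obp99c). At 10 days they were -0.99 (Obp19a), -0.14 (Obp49a), -0.09 (Obp56h), -0.47 (Obp57c) and -0.46 (Obp99c). Under the other alternatives, 1061 of 1098 values stayed past the threshold with the same sign, 37 did not pass and 0 changed sign.

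With the same scaling, 10 Obp genes were higher and 6 lower in males at 30 days, 11 were higher at 10 days, and 0 were lower in 30-day males. In 30-day males DESeq2 called 2 Obp genes higher and 3 lower, limma-voom 3 higher and 4 lower, and upper quartile scaling 0 lower. In 30-day females, scaling by RLE, upper quartile or total count, or a filter at a mean of 10 counts, left 0 called lower, and DESeq2 called 3. For the sex difference that changes with age, DESeq2 called 2 higher and limma-voom 1. The cause of these changes was not tested. Without 1 library, 26 to 30 Obp genes were higher in males at 30 days with 0 lower, and 24 to 27 were higher at 10 days with 2 lower. In 30-day males 0 were higher and 0 to 1 lower, in 30-day females 0 were higher and 0 to 3 lower (3 without replicate 1 of the 30-day females), and the sex difference changed with age in 0 to 1 higher (1 without replicate 1 of the 30-day or of the 10-day females) and 0 lower.

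Males and females of the same age and number did not deviate together over all genes (correlations between -0.02 and 0.05). Those with different numbers gave -0.08 to 0.06. Links across the ages were not looked at, so these values cannot show whether the numbers pair the samples, and the sources do not say. With a replicate block, 27 Obp genes were higher in males at 30 days, 25 higher and 2 lower at 10 days, and 0 changed with age in either sex. A robust quasi-likelihood fit, added after the data were seen, called 28 higher in males at 30 days, and 26 higher and 2 lower at 10 days. Low members limit the tests: in 12 of 43 genes no library reached 100 counts. The sources used here name no molecular identifiers, and the spread in the tests was estimated from only 3 libraries per group. RLE scaling moved the median male to female difference of all genes by 0.21 at 30 days and 0.23 at 10 days, and total counts by -0.32 and -0.24.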
